A study of Homo sapiens with 6 samples.

Results

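The 32 genes described here make, sense, move and export cholesterol, or make the fatty acids that are switched on with it. The list was given by gene name, and no measured value entered the rule, although it was drawn up with earlier results of these data known. Each symbol was matched to its Ensembl identifier, and all 32 were found among the 60617 identifiers counted in each tumor. All 32 also passed the filter on low counts, as did 20423 genes in all. RNA was sequenced from 6 tumors grown as xenografts of WM983-B, an established line of human melanoma cells. Tumors of the anle138b group (n = 3) came from hosts given this diphenyl-pyrazole compound systemically. It binds oligomers of α-synuclein and interferes with their structure. Tumors of the untreated group (n = 3) carried the same cell line and received no treatment. Dose, duration, host strain and host age are not given in the sources used here. The titles put the tumors into 2 naming sets. The Juni2018 set held 2 treated and 2 untreated tumors, called anle138b 1 and 2 and untreated 1 and 2. The blau set held anle138b 3 and untreated 3. The meaning of the set names is not stated there either.

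Cells make cholesterol from acetyl-CoA through mevalonate, squalene and lanosterol. When sterols in the endoplasmic reticulum are low, the escort protein SCAP carries the SREBP precursors, encoded by SREBF1 and SREBF2, to the Golgi, where they are cleaved and released to switch on their target genes. When sterols are plentiful, INSIG proteins hold SCAP back, and oxysterols turn on LXR receptors and with them the efflux pumps ABCA1 and ABCG1. SREBP-2 mainly drives sterol genes and SREBP-1c mainly fatty acid genes.

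Libraries held 12400782 to 27599159 counts, both blau libraries being the deepest, and the 32 genes took 0.208% to 0.252% of them. The lowest count of any of them in any library was 23. Levels are CPM, counts scaled to library size, after TMM scaling, and changes are on the log2 scale from an edgeR fit with treatment and naming set as terms. The label was checked against 8 melanoma markers, whose summed level was 15400 to 19000 CPM in treated and 14000 to 18300 CPM in untreated tumors. Nothing in the labels ties each tumor to its own animal, so the p-values cover the spread between these 6 libraries, part of which may be technical. In whole tumors, fewer cells of a type and less RNA per cell cannot be told apart.

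Promoter windows are shown first because SREBPs act through short elements close to the start of their targets, usually beside an NF-Y box. The windows run from 250 bases before to 50 after the start, come from RefSeq (GRCh38.p14) and existed for 27 of the 32 genes. Letters searched on both strands were TCACNCCAC for the sterol response element, CCAAT for the NF-Y box, CACGTG for the E-box and GGGCGG for the SP1 box. Of the 5 regulators and the 4 genes with the smallest treatment p, 8 had a window. The windows of these genes that held a sterol response element or NF-Y match are given, with those matches in capitals, 5′ to 3′ on the strand of the gene.
SREBF2 (chr22:41832855-41833154, plus strand): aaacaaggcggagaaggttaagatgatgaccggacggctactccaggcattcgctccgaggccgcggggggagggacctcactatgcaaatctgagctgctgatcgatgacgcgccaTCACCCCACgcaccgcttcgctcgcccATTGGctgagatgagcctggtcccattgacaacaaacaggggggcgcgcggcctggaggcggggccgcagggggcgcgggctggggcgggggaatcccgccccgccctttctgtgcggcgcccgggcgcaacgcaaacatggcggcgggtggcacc
INSIG1 (chr7:155297628-155297927, plus strand): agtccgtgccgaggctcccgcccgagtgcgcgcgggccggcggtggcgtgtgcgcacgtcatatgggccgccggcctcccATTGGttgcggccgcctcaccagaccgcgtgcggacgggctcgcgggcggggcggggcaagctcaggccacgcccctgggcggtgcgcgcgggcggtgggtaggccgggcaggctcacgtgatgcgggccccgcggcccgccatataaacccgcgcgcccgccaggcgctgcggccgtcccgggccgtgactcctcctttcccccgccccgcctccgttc
STARD4 (chr5:111512486-111512785, minus strand): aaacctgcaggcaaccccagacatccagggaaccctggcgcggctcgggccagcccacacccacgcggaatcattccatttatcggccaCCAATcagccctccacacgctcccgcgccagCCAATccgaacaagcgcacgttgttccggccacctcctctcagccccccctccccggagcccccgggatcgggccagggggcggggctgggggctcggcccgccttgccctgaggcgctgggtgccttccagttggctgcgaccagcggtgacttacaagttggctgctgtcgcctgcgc
IDI1 (chr10:1049070-1049369, minus strand): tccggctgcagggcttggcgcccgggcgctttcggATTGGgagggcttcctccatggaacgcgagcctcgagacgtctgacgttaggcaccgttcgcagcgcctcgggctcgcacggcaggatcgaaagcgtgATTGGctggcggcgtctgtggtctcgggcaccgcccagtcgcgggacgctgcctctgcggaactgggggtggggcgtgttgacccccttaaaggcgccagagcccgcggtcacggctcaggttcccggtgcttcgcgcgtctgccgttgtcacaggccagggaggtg
TM7SF2 (chr11:65111622-65111921, plus strand): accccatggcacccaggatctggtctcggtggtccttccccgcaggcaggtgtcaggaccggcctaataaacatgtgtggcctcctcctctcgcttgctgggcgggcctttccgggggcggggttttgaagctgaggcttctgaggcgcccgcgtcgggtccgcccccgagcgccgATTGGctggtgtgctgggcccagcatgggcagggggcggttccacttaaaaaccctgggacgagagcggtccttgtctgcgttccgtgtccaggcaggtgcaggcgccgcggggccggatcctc

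In the SREBF2 window the sterol response element read TCACCCCAC, began 133 bases before the start and was followed by an NF-Y box on the opposite strand 106 bases before the start. STARD4 held a pair of NF-Y boxes on the gene's own strand, IDI1 a pair on the opposite strand, and INSIG1 and TM7SF2 held 1 each. The windows of SREBF1, SCAP and INSIG2 matched neither element. Over the 27 windows, the sterol response element was found in 1 (3.7%), against 1.13% of all 35116 windows. NF-Y boxes were found in 16 (59.3%, against 34.6%), and 11 windows held 2 or more (40.7%, against 10.8%). The E-box was found in 5 (18.5%, against 7.26%) and the SP1 box in 24 (88.9%, against 45%). SREBP also binds variants of its element that these letters do not cover. The median treatment change, a description only, was 0.18 for the 16 genes with an NF-Y box and 0.05 for the 11 without. The ranges overlapped, at -0.7 to 0.33 with the box and -0.16 to 0.27 without.

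Levels between genes were compared as CPM per kilobase of exon. SCD, the desaturase that makes monounsaturated fatty acids, stood highest at 85.2 CPM per kilobase (72.1 to 97.9 over the 6 tumors), at the 98.5th percentile of the genes tested. FASN, fatty acid synthase, followed at 36.1 (25.7 to 58.0). FDFT1, squalene synthase, had 29.7 (26.4 to 33.2), and INSIG1 had 24.6 (16.1 to 29.4). These ranges show SCD above every other gene of the list in every tumor, while FASN, FDFT1 and INSIG1 overlapped. HMGCS1 and SQLE, at 19.1 and 17.1 CPM per kilobase, overlapped in turn. At the low end ABCG1 had 0.388 (0.287 to 0.513), CYP51A1 1.27 (0.746 to 1.96) and HSD17B7 1.86 (1.49 to 2.1). Exons of CYP51A1 and ACAT2 overlap other annotated genes over 83.2% and 52.3% of their bases, so their levels are uncertain. Those of FDPS, HMGCS1 and IDI1 overlap genes on the opposite strand over 18.6%, 15% and 14.8%, and the libraries do not mark strand. The plot of levels by library shows every value.

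**Figure D1:**
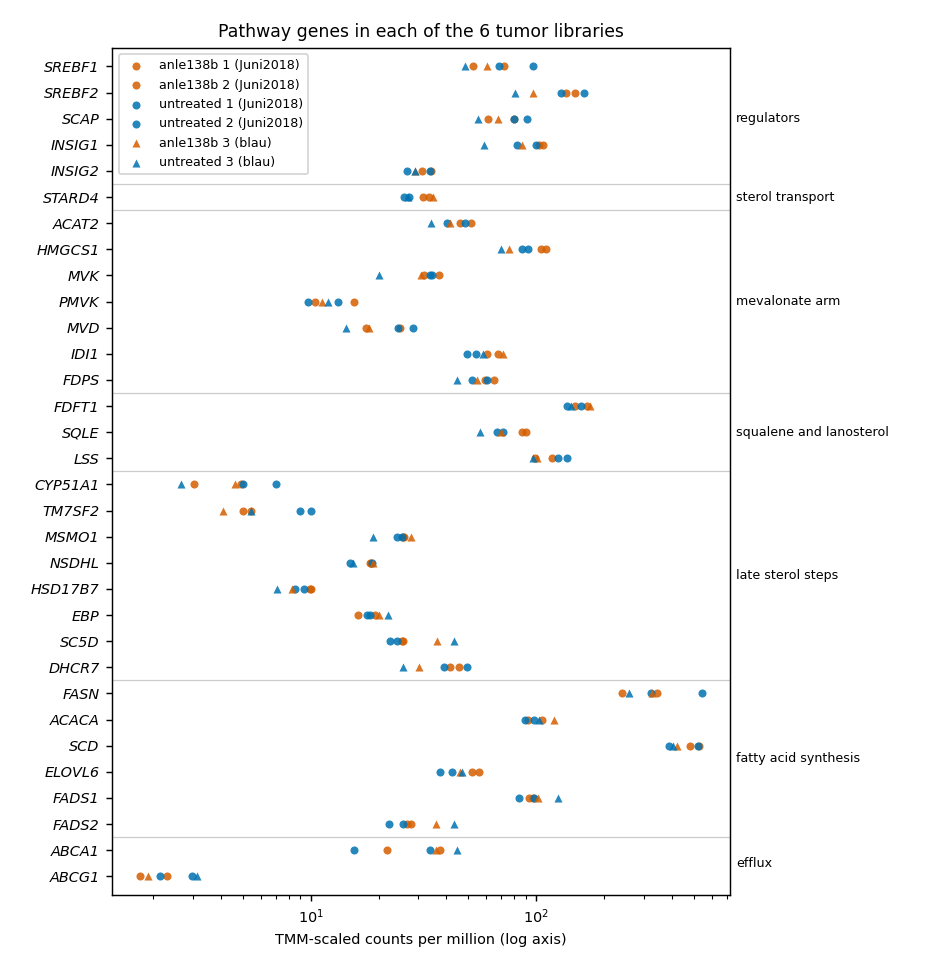
Level of each of the 32 genes in each tumor, in TMM-scaled CPM on a log axis. Orange points are treated and blue points untreated tumors, circles are the Juni2018 set and triangles the blau set. SCD and FASN lie at the right and ABCG1 at the left, and the 2 colours overlap in most rows.

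The comparison named by the study is anle138b against untreated tumors. None of the 32 genes passed the test, and the changes of most sterol enzymes lay slightly above 0. At an adjusted p of 0.05, 0 were called, against 1.05% of all genes tested, 0.656% higher and 0.397% lower (edgeR quasi-likelihood test, Benjamini-Hochberg over all genes). DESeq2 and limma also called 0. At an unadjusted p under 0.05 edgeR gave 6 of 32 genes (18.8%, against 8.49% of all genes), DESeq2 gave 5 and limma 6. Of the 6 by edgeR, 5 were higher (15.6%, against 3.43% of all genes) and 1 was lower (against 5.06%). The median change of the list was 0.08, against -0.01 over all genes and 0.01 over protein-coding genes. Changes were above 0 for 21 of 32 genes (65.6%), against 47.9% of all genes and 51.9% of protein-coding genes.

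**Figure D2:**
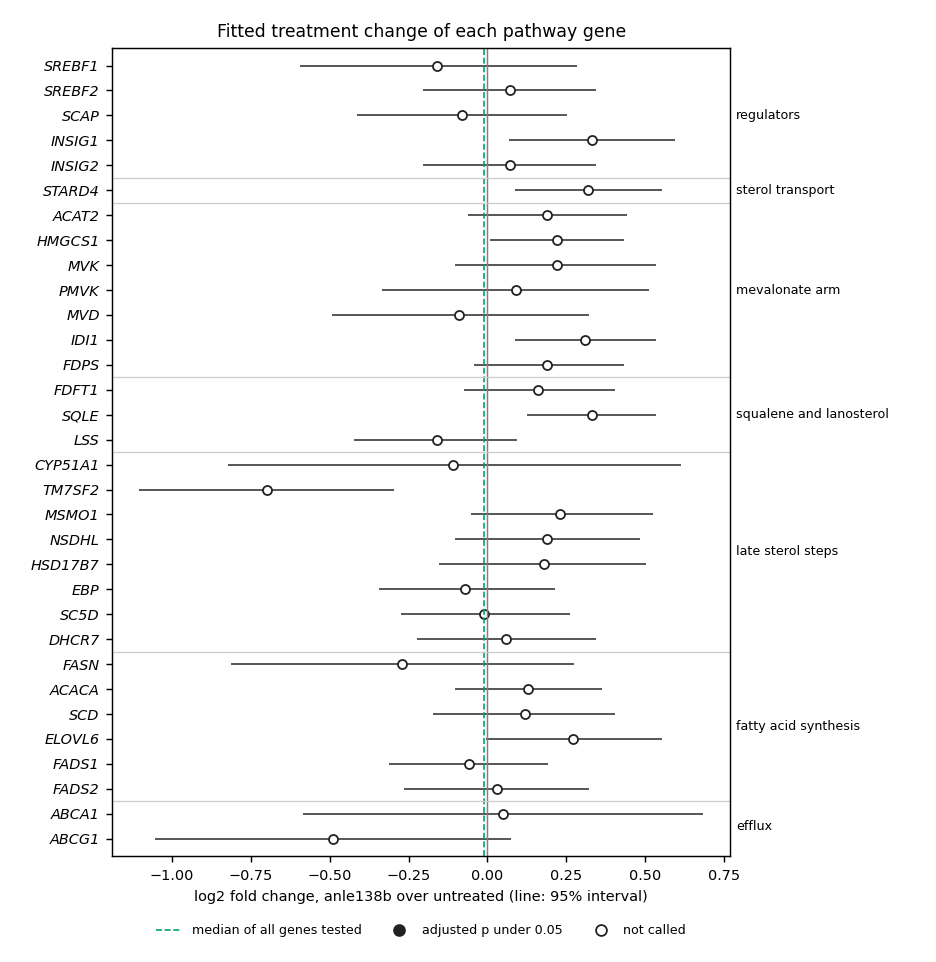
Fitted log2 fold change of anle138b over untreated for each gene with its 95% interval, grouped by role. No point is filled, since no adjusted p was under 0.05, and intervals wholly on one side of 0 belong to INSIG1, STARD4, HMGCS1, IDI1 and SQLE on the right and TM7SF2 on the left.

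Among the regulators, INSIG1 (chromosome 7, 155297776 to 155310235, GRCh38), the retention factor that is itself a classic SREBP target, had 103, 107 and 86.9 CPM in anle138b 1 to 3 and 82.2, 100.2 and 58.9 CPM in untreated 1 to 3. Treated tumors were above untreated tumors within each naming set, but the groups as a whole overlapped. The change was 0.33 ± 0.12 (SE, n = 3 per group; adjusted p = 0.382 by edgeR). SREBF2 (chromosome 22, 41833079 to 41907308) had 149, 135 and 97.2 CPM against 129, 163 and 80.6 CPM, with a change of 0.07 ± 0.12. Its treated and untreated values interleaved. SREBF1 had a change of -0.16 ± 0.19 and SCAP one of -0.08 ± 0.15, each with the highest value of all in untreated 2 (97.0 and 90.9 CPM). INSIG2, the second INSIG protein, changed by 0.07 ± 0.12 and stayed between 26.8 and 34.1 CPM.

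STARD4 (chromosome 5, 111496033 to 111512590), a carrier that moves cholesterol between membranes, had 31.5, 33.5 and 35.0 CPM in treated and 25.9, 27.3 and 27.1 CPM in untreated tumors. Every treated tumor lay above every untreated one, as was the case for 3 of the 32 genes (9.38%, against 4.03% of all genes). The change was 0.32 ± 0.10, with 95% interval 0.09 to 0.55 (adjusted p = 0.285 by edgeR).

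In the mevalonate arm, from acetyl-CoA to farnesyl diphosphate, 6 of 7 genes had a change above 0, with a median of 0.19. IDI1 (chromosome 10, 1039152 to 1049170), the isomerase that makes dimethylallyl diphosphate, had 60.4, 67.9 and 71.5 CPM in treated and 49.2, 53.9 and 58.1 CPM in untreated tumors. The groups did not overlap, and the change was 0.31 ± 0.10 (adjusted p = 0.271 by edgeR). HMGCS1 (chromosome 5, 43289395 to 43313512), which makes HMG-CoA, had 105, 110.2 and 75.5 CPM against 86.4, 91.6 and 69.7 CPM. Its treated values were higher within each set and overlapped across sets, with a change of 0.22 ± 0.09 (adjusted p = 0.546 by edgeR). The remaining members were ACAT2, the thiolase that opens the arm (0.19 ± 0.11), the mevalonate kinase MVK (0.22 ± 0.14), the phosphomevalonate kinase PMVK (0.09 ± 0.19), the decarboxylase MVD (-0.09 ± 0.18) and FDPS, farnesyl diphosphate synthase (0.19 ± 0.10). All 5 had intervals that included 0.

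SQLE (chromosome 8, 124998497 to 125022283), the epoxidase that commits squalene to sterols, had 86.6, 89.7 and 69.7 CPM in treated and 71.4, 67.3 and 56.4 CPM in untreated tumors. Treated tumors were higher within each set, and anle138b 3 lay below untreated 1. The change was 0.33 ± 0.09, with 95% interval 0.13 to 0.53 (adjusted p = 0.174 by edgeR). FDFT1 (0.16 ± 0.10) and the lanosterol synthase LSS (-0.16 ± 0.11) had intervals that included 0.

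Among the late sterol steps, TM7SF2 (chromosome 11, 65111845 to 65116384), a sterol C14 reductase, was lower in treated tumors, with 5.43, 5.03 and 4.1 CPM against 9.01, 10 and 5.43 CPM. By unrounded values it was the 1 gene of the list with every treated tumor below every untreated one, where 4.47% of all genes were. The gap lay with untreated 1 and 2, since untreated 3 equalled anle138b 1 to the digits given. The change was -0.70 ± 0.18, with 95% interval -1.1 to -0.3 (adjusted p = 0.139 by edgeR). It was the only gene of the list past the threshold under any alternative for treatment, at an adjusted p of 0.0463 (edgeR) with no filter on low counts. MSMO1, the sterol C4 methyl oxidase, had 25.8, 25.9 and 28.0 CPM against 25.3, 24.1 and 19.0 CPM and a change of 0.23 ± 0.13. Its groups did not overlap, by the narrow step from 25.3 to 25.8 CPM. The dehydrogenase NSDHL changed by 0.19 ± 0.13, the keto reductase HSD17B7 by 0.18 ± 0.14, the isomerase EBP by -0.07 ± 0.12, the desaturase SC5D by -0.01 ± 0.12 and the final reductase DHCR7 by 0.06 ± 0.12. CYP51A1, the lanosterol demethylase, changed by -0.11 ± 0.32. All 6 intervals included 0.

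The fatty acid enzymes held no gene with an unadjusted p under 0.05. ELOVL6, the elongase of saturated chains, came nearest at 0.27 ± 0.12 (adjusted p = 0.601 by edgeR). FASN had 342, 241 and 324 CPM in treated and 323, 543 and 257 CPM in untreated tumors. Its highest and its second lowest value were both untreated, and its change was -0.27 ± 0.24. The carboxylase ACACA changed by 0.13 ± 0.10, SCD by 0.12 ± 0.13, and the desaturases of polyunsaturated chains FADS1 and FADS2 by -0.06 ± 0.11 and 0.03 ± 0.13. Of the efflux pumps, ABCA1 ranged from 21.9 to 37.4 CPM in treated and from 15.6 to 44.7 CPM in untreated tumors, with a change of 0.05 ± 0.28. ABCG1 changed by -0.49 ± 0.25, at 1.76 to 2.32 CPM in treated and 2.15 to 3.14 CPM in untreated tumors.

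Treatment differences were also read within each naming set, without a test, since blau held 1 tumor of each group. Treated tumors were above untreated tumors in both sets for 7 of 32 genes (21.9%, against 9.52% of all genes): INSIG1, STARD4, HMGCS1, IDI1, SQLE, MSMO1 and HSD17B7. They were below in both sets for TM7SF2 alone, where 10.4% of all genes did so. The direction of the set means was the same in both sets for 17 of 32 genes (53.1%, against 51.1% of all genes). Of these, 14 lay above 0 in both sets (43.8% of the list, against 24.4% of all genes and 27.6% of protein-coding genes). The other 3 lay below 0 in both, as did 5439 of the 20423 genes tested. For 8 genes the difference was below 0 in Juni2018 and above 0 in blau (25% of the list and 25.4% of all genes). These included FASN (-0.55 and 0.34), CYP51A1 (-0.61 and 0.76), SREBF1 (-0.40 and 0.33), SCAP (-0.28 and 0.29) and MVD (-0.33 and 0.34). Each of these 5 was highest of all in untreated 2, and each but FASN was lowest of all in untreated 3.

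**Figure D3:**
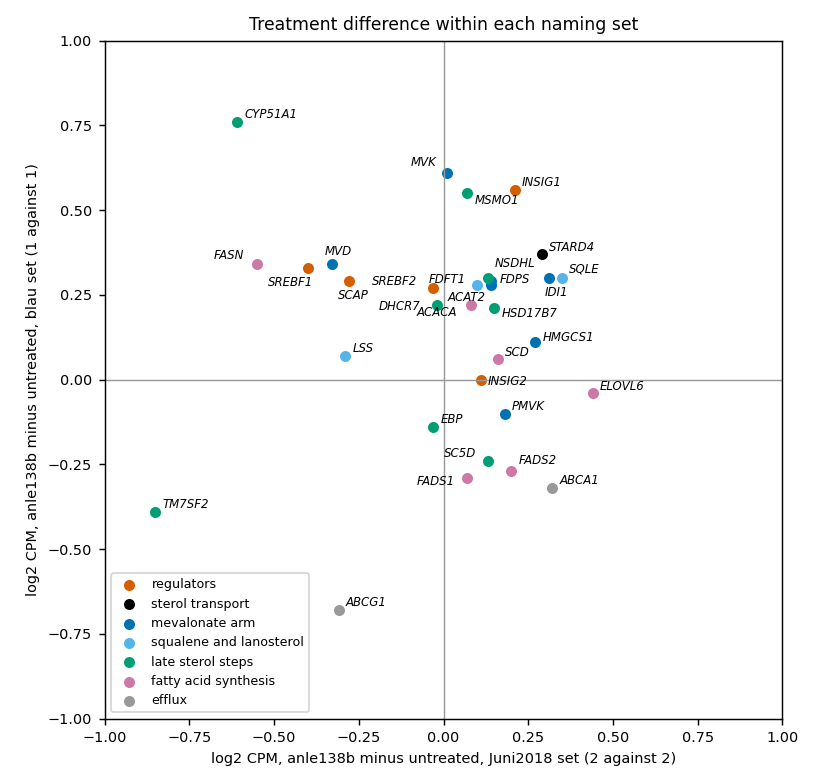
Treatment difference of each gene in log2 CPM within the Juni2018 set (horizontal axis, 2 tumors against 2) and within the blau set (vertical axis, 1 against 1), coloured by role. STARD4, IDI1, SQLE and INSIG1 lie in the upper right and TM7SF2 and ABCG1 in the lower left, while FASN, CYP51A1, SREBF1, SCAP and MVD lie in the upper left.

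Whether the treatment effect differed between sets was tested as an interaction. EdgeR called 0 of the 32 genes and 0% of all genes, and DESeq2 and limma called 0 of the 32. At an unadjusted p under 0.05, edgeR gave 2 genes (6.25%, against 6.59% of all genes), DESeq2 gave 1 and limma 4. The 2 were MVK, with an effect larger by 0.60 in blau (adjusted p = 0.736), and CYP51A1, larger by 1.37 (adjusted p = 0.736). FASN had a difference of 0.91 (adjusted p = 0.749 by edgeR). Without untreated 1 the FASN difference was 1.24. The untreated side of Juni2018 was then untreated 2 alone, the library where FASN was highest (543 CPM).

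Between naming sets, SREBF2 and several sterol genes were lower in blau, and SC5D and FADS2 were higher. The fit called 6 of 32 genes (18.8%), against 15.5% of all genes, so the share was near the background. Of these, 2 were higher in blau (against 8.32% of all genes) and 4 lower (against 7.14%). Libraries of the 2 sets did not overlap for 9 genes (28.1%, against 38.3% of all genes). Both blau libraries lay above all Juni2018 libraries for 4 genes (against 19% of all genes) and below them for 5 (against 19.4%). The median change of the list, blau over Juni2018, was -0.24, against -0.02 over all genes. Both blau tumors were compared with 4 Juni2018 tumors, so all values here rest on 2 libraries on one side.

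SREBF2 fell from 144 ± 15.3 CPM (SD, n = 4) in Juni2018 to 97.2 and 80.6 CPM in blau, a change of -0.70 ± 0.13 (adjusted p = 0.0086, edgeR quasi-likelihood test). DHCR7, which makes cholesterol in the last step of one branch, had 39.0 to 49.5 CPM in Juni2018 and 30.2 and 25.8 CPM in blau, a change of -0.65 (adjusted p = 0.0128 by edgeR). Both sets stood apart for these 2 genes and for HMGCS1, which fell by 0.43 (adjusted p = 0.0209 by edgeR), from 86.4 to 110.2 CPM down to 75.5 and 69.7 CPM. INSIG1 fell by 0.45 (adjusted p = 0.0404 by edgeR), though anle138b 3 at 86.9 CPM lay above untreated 1 at 82.2 CPM. In the other direction SC5D, the desaturase before DHCR7, had 22.5 to 25.6 CPM in Juni2018 and 36.5 and 43.1 CPM in blau, a rise of 0.70 (adjusted p = 0.00519 by edgeR). FADS2 had 22.3 to 28.0 CPM and 35.8 and 43.1 CPM, a rise of 0.62 (adjusted p = 0.0146 by edgeR). The remaining 26 genes did not pass; among them SQLE changed by -0.32 (adjusted p = 0.0521 by edgeR), TM7SF2 by -0.59 (adjusted p = 0.0646) and MVK by -0.45 (adjusted p = 0.0731).

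**Figure D4:**
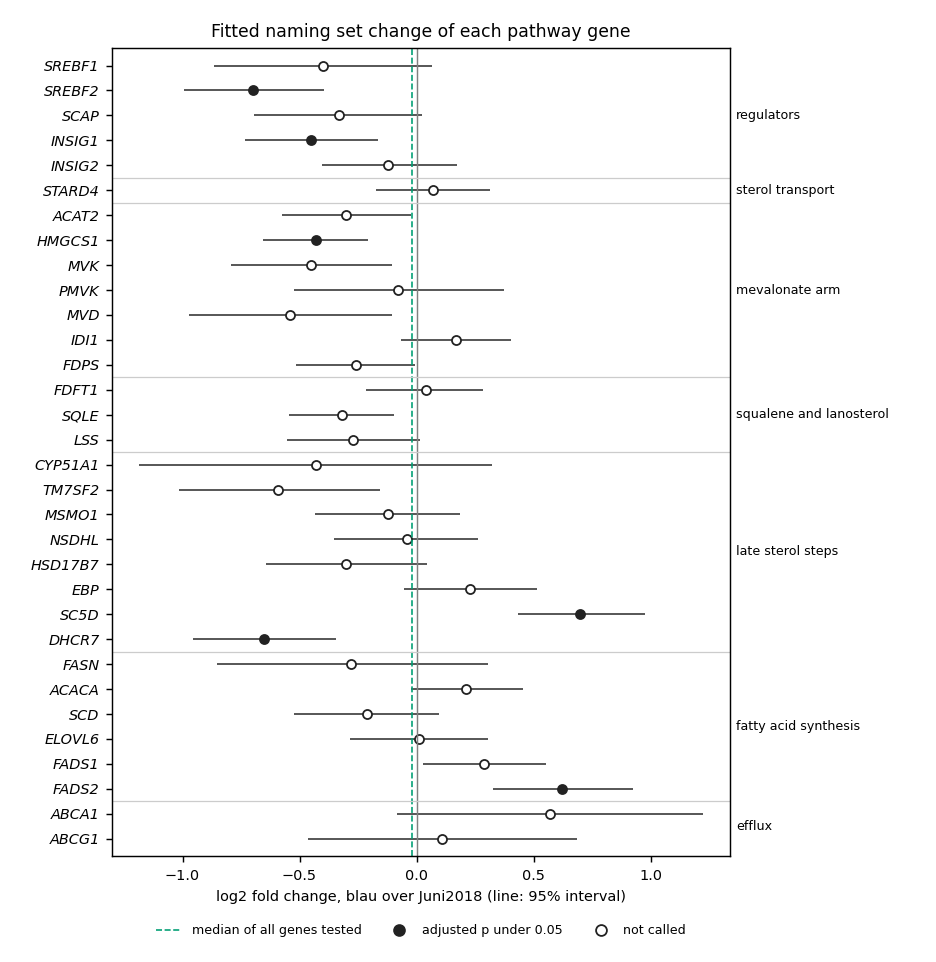
Fitted log2 fold change of the blau over the Juni2018 set for each gene with its 95% interval, grouped by role. Filled points mark the 6 genes with an adjusted p under 0.05: SREBF2, INSIG1, HMGCS1 and DHCR7 on the left, SC5D and FADS2 on the right.

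These calls turned on single libraries. Without anle138b 2, 15 of the 32 genes were called for naming set, as were 5960 of 21896 genes in all. Without untreated 3 the blau set held 1 library, and the median change of the list was -0.08, against -0.24 with all 6 libraries. Untreated 3 was the lowest library for 15 of the 32 genes, against 24.1% of all genes. The calls of SREBF2, DHCR7, SC5D and FADS2 were lost only without untreated 3, the fit with 1 blau library. Their changes in that fit kept direction, at -0.53, -0.51, 0.53 and 0.40. INSIG1 lost its call when any of anle138b 1 or untreated 1, 2 or 3 was left out, and HMGCS1 when anle138b 1 or 3 or untreated 3 was. Markers of melanoma and of other cells moved with the sets too. Of the 8 melanoma markers 3 were called higher in blau (against 8.32% of all genes) and 0 lower, while 3 had changes below 0. The called genes were TYRP1, S100B and MLANA, with log2 changes of 1.73, 0.86 and 0.47 (adjusted p = 0.00616, 0.00328 and 0.0275 by edgeR). The melanoma sum, mostly PMEL, overlapped, at 15400 to 19000 CPM in Juni2018 and 14000 to 15600 CPM in blau. Summed fibroblast markers (6 genes) were 412 to 509 CPM in Juni2018 and 558 to 821 CPM in blau. The fibroblast rise lay with COL1A1, COL1A2 and COL3A1 (log2 changes 0.81, 0.95 and 0.99). LUM, PDGFRB and DCN changed by -0.15, 0.01 and 0.16 and were not called. In the same order of sets, endothelial markers (6 genes) summed to 7.7 to 10.4 and 16.4 to 18.7 CPM. Adipocyte markers (6 genes) summed to 15.9 to 26.7 and 48.9 to 49.6 CPM. Myeloid markers (6 genes) overlapped, at 23.3 to 44.8 and 40.1 to 50.1 CPM. Of the 5 tested, 1 was called, ITGAM, higher in blau (1.09, adjusted p = 0.039 by edgeR; against 8.32% of all genes). The endothelial rise was carried by KDR, with a mean of 2.64 CPM in Juni2018 and 11.9 CPM in blau (log2 change 2.20, adjusted p = 0.000259 by edgeR), while the other 3 tested endothelial markers had changes below 0. The muscle markers MYH1 and MYH2 were lower in blau, with log2 changes of -1.49 and -1.29 (adjusted p = 0.00343 and 0.00563 by edgeR). ACTA1 (-0.21) and TTN (0.11) were not called. The muscle sum (5 measured genes) overlapped, at 228 to 393 CPM in Juni2018 and 273 to 298 CPM in blau. Most of the adipocyte sum was LPL, and the defining markers ADIPOQ and LEP had at most 2 and 3 counts in any library. Whether the counts of the non-melanoma markers came from host or tumor cells was not tested. The part of all these markers in the set differences was not tested either. Between treated and untreated tumors the sums overlapped for all 6 marker lists. Of their genes 1 was called, the fibroblast marker LUM, which rose (0.70, adjusted p = 0.0249 by edgeR). The other fibroblast markers changed by -0.03 to 0.19, and which cells gave the LUM counts was not tested. The 8 melanoma markers changed by -0.46 (S100B) to 1.42 (TYRP1, adjusted p = 0.0692 by edgeR), 4 above 0 and 4 below. For 1 of the 8, DCT (0.42), every treated tumor lay above every untreated one, against 4.03% of all genes.

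Another 50 genes of the same pathways, held in 4 further lists, were read in the same fit, and 49 passed the filter. The fit called 4 of the 49 for treatment, 3 higher and 1 lower, against 1.05% of all genes. The median change was 0.04.

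Among the other sterol and isoprenoid enzymes, ACAT1, a mitochondrial thiolase, had a change of -0.24 and PDSS1, a subunit of the enzyme that makes the coenzyme Q side chain, one of 0.14, neither called by edgeR. Among the genes for sterol sensing, uptake and storage, LPIN1, a phosphatidate phosphatase, had a change of -0.47 and did not pass (adjusted p = 0.112 by edgeR).

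Of the 16 other fatty acid genes 1 was called. ACSL1, which activates long-chain fatty acids, rose from 87.2 ± 9.59 CPM to 167 ± 23.3 CPM (SD, n = 3 per group), a change of 0.94 ± 0.13 (SE; adjusted p = 0.00839 by edgeR). Its values were 152, 156 and 194 CPM in treated and 84.8, 97.8 and 79.1 CPM in untreated tumors, with no overlap. FADS3 (-0.45, adjusted p = 0.0917) and ELOVL7 (-0.45, adjusted p = 0.0921) came next and did not pass. Of the 7 measured LXR receptors and targets none was called by edgeR. The smallest p belonged to MYLIP, a ubiquitin ligase (-0.31, adjusted p = 0.247 by edgeR), and 1 of the 7 had an unadjusted p under 0.05. PLTP had a change of 0.13.

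All 4 calls were lost with no naming set term, which gave ACSL1 an adjusted p of 0.109 (edgeR). The DESeq2 Wald test, limma voom and the Juni2018 set alone each called ACSL1. It passed each time when 1 library was left out in turn, and its direction did not change in any of these fits.

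For naming set, 12 of the 49 genes were called, 2 higher and 10 lower in blau, against 15.5% of all genes. The most changed was ME1, malic enzyme, with 2.24 to 3.17 CPM in Juni2018 and 9.62 and 7.13 CPM in blau, a rise of 1.54 (adjusted p = 0.00174 by edgeR). AACS, which activates acetoacetate, fell by 0.50 and FADS3 by 0.53 (adjusted p = 0.0119 and 0.0136 by edgeR). PLTP, the phospholipid transfer protein, fell by 0.82 and NR1H2, the receptor LXR-beta, by 0.79 (adjusted p = 0.0128 and 0.0202 by edgeR), while SMPDL3A was not called (0.39, adjusted p = 0.0614). The lysosomal carrier NPC2 fell by 0.40 and the endosomal carrier STARD3 by 0.60 (adjusted p = 0.0385 and 0.0394 by edgeR). ERG28 fell by 0.59 and DHDDS by 0.43 (adjusted p = 0.022 and 0.0272 by edgeR), while ACAT1 was not called (0.41, adjusted p = 0.0762). Without untreated 3, only ME1 of the 12 kept its call, and the changes of the lowered genes named here then lay between -0.53 and -0.24.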

How the data were processed

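Per the labels' protocols, TRIzol was used for extraction and the TruSeq RNA Library Prep Kit v2, which does not mark strand, for the libraries. The authors deposited raw counts per gene, 1 file per tumor. The submitters' processing notes name bcl2fastq 2.17.1.14, STAR 2.5.2a, featureCounts 1.5.0-p1 and build hg38. The annotation release, the counting settings and the handling of host reads are not given in the sources used here. Without strand, reads of overlapping or antisense genes cannot be told apart.

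The count analysis used edgeR 4.0.16 (R 4.3.3): filterByExpr by group (minimum count 10, minimum total 15), TMM scaling, and the quasi-likelihood F test with treatment and naming set as terms (3 residual degrees of freedom; 2 for their interaction), Benjamini-Hochberg adjusted over all 20423 genes at 0.05. The standard error is the change divided by the square root of F. The 95% intervals use the t distribution with the residual degrees of freedom plus those the fit borrows from all genes (median total 9.47). Log2 CPM used a prior count of 2. Positions, exon lengths and exon overlaps came from GENCODE. Where a gene had several promoter windows, the one nearest its annotated 5′ end was used. No replicates agreed within sampling noise (chi-square test of counts). Depth was 12400782 to 27599159 counts per library. Reads carry no molecular identifiers. Fits were tested on simulated data. Alternatives were other scalings and filters, DESeq2 1.42.0, limma 3.58.1 voom, no set term, Juni2018 alone and leaving out each library.

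The genes and lists were chosen with earlier results of these data known. The text names each of the 32 genes and, of each other list, the 3 genes with the smallest p for treatment and for naming set. Some genes that this rule took are not reported here; the counts include them. The same alternatives were run for the called genes of the other lists, a choice made after seeing the data.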

Additional observations from a re-analysis of the deposited data

How the results depend on the processing

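Of 479 treatment changes of the 32 genes refitted under the alternatives, 448 kept their direction and their side of the threshold, 30 turned and 1 came past it. Of 415 naming set changes, 369 kept both, 17 turned, 18 came past the threshold and 11 lost it. The 32 genes gave 0 treatment calls under each alternative but no low-count filter, which gave 1. That setting gave 754 genes in all, against 215, and no set term gave 9, the Juni2018 set alone 92 and the DESeq2 Wald test 412. Leaving out 1 library gave 89 to 392 genes and a median change of the list of 0.03 to 0.17.

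For naming set, no low-count filter gave 10 of the 32 genes and 6250 of all, and library size alone a median of -0.16. Leaving out 1 library gave 0 to 15 of the 32, 993 to 5960 of all genes and a median of -0.31 to -0.08. For the interaction, no low-count filter gave 262 genes with 1 of the 32 (FASN), the DESeq2 Wald test 31, library size alone 11 and upper-quartile scaling 1. Leaving out 1 Juni2018 library gave 24 to 436 genes and 0 to 1 of the 32. The cause was not tested, except that leaving out libraries and the Juni2018 set alone use fewer samples.

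With 1 library left out, treatment changes turned direction, with their ranges over the 6 such fits, for ABCA1 (-0.25 to 0.37), CYP51A1 (-0.59 to 0.19), DHCR7 (-0.02 to 0.19), FADS1 (-0.12 to 0.08), FADS2 (-0.04 to 0.21), FASN (-0.57 to 0.06), MVD (-0.31 to 0.11), PMVK (-0.11 to 0.21), SC5D (-0.05 to 0.14), SCAP (-0.27 to 0.08), SREBF1 (-0.40 to 0.07) and SREBF2 (-0.03 to 0.20). Naming set changes turned for ABCG1 (-0.08 to 0.28), CYP51A1 (-1.16 to 0.23), ELOVL6 (-0.22 to 0.25), FASN (-0.76 to 0.17), FDFT1 (-0.06 to 0.14), MSMO1 (-0.38 to 0.13), NSDHL (-0.13 to 0.05) and PMVK (-0.21 to 0.07). Other settings turned the treatment changes of DHCR7 (-0.02), FADS1 (0.07), SREBF2 (-0.03) and SC5D (0.13) in the Juni2018 set alone, of FADS2 (-0.01) with no set term and of SC5D (0.01) with DESeq2 size factors and by the DESeq2 Wald test. They turned the naming set changes of NSDHL (0.01 with at least 50 counts in 3 libraries, 0.03 with library size alone, 0.01 with upper-quartile scaling) and of PMVK (0.01 with library size alone). No paired analysis was possible because the replicate numbers only follow the listing order. Depth was 23 counts or more for each of the 32 genes in each library.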
